A study of Homo sapiens with 12 samples.

Results

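The dual specificity MAP kinase phosphatases (MKPs) are a family of 10 enzymes, DUSP1, DUSP2, DUSP4, DUSP5, DUSP6, DUSP7, DUSP8, DUSP9, DUSP10 and DUSP16. Their members were taken by gene name from a table of 58735 genes, in which each of the 10 was found once. All 10 reached the required average of 10 raw counts and were among the 16618 genes tested. Both cell lines are human keratinocytes made immortal for culture, HaCaT from the skin and TIGK from the gingiva, which the labels call oral. Polyadenylated RNA was measured in 12 libraries, 3 in each of 4 groups, which were untreated TIGK, TIGK after 5 mM H2O2 for 3 h, untreated HaCaT and HaCaT after 5 mM H2O2 for 3 h. All groups were kept in DermaLife K Keratinocyte Complete Medium and were confluent before treatment, and each tissue is represented by 1 line. No source used here says that the 3 libraries of a group came from separate cultures, so p-values measure the spread between these samples, which may be technical.

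MAP kinases are switched on when a kinase phosphorylates both a threonine and a tyrosine of their activation loop, and MKPs remove both phosphates. The family is usually divided by place and target. DUSP1, DUSP2, DUSP4 and DUSP5 are nuclear and encoded by inducible genes, DUSP6, DUSP7 and DUSP9 are cytoplasmic and prefer ERK, and DUSP8, DUSP10 and DUSP16 prefer the stress kinases JNK and p38. Several MKP genes are transcribed in response to the same kinases that their products switch off, which makes them feedback inhibitors. In keratinocytes, ERK, JNK and p38 are activated by growth factors, ultraviolet light and oxidants, and the catalytic cysteine of these phosphatases can itself be oxidized by H2O2. RNA levels, not phosphatase activity, were measured here.

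Promoter sequences of 8 of the 10 members were found in RefSeq (GRCh38.p14), each 300 bases long and ending 50 bases past the start site, and DUSP4 and DUSP5 were not matched. The promoters of DUSP1, DUSP2 and DUSP7 are shown because the transcripts of DUSP1 and DUSP2 rose and that of DUSP7 fell in both lines, and because their RefSeq starts lay within 21 bases of the starts in the deposited table. They are read 5′ to 3′ on the minus strand, which carries all 3 genes, at chr5:172771146-172771445 for DUSP1, chr2:96145391-96145690 for DUSP2 and chr3:52056522-52056821 for DUSP7. Capitals mark TGACG, the shorter form of the cAMP response element, the E-box CACGTG and the TATA box TATAAA, each on either strand.
DUSP1: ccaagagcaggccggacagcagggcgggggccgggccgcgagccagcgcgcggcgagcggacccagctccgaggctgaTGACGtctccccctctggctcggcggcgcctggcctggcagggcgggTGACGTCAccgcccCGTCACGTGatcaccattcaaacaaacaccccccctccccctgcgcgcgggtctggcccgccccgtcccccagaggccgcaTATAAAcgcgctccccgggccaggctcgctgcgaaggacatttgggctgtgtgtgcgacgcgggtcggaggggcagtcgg
DUSP2: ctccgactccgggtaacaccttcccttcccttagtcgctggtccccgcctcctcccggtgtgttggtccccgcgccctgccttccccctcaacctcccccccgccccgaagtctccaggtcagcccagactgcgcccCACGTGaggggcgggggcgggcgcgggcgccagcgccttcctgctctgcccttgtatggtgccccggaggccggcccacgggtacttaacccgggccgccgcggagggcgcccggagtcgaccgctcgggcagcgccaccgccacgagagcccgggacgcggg
DUSP7: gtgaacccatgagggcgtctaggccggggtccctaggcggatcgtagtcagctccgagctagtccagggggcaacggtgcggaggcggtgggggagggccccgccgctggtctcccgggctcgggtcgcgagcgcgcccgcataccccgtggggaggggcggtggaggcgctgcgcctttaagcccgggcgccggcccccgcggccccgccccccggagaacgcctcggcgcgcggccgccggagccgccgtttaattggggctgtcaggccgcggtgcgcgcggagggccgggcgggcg
The DUSP1 promoter held the full cAMP response element TGACGTCA at -125 to -118 from the start, an E-box at -108 to -103 that overlaps a TGACG match on the other strand, and a TATA box at -30 to -25. The DUSP2 promoter held an E-box at -113 to -108 and neither of the others. None of the marked motifs was present in the DUSP7 window, which held 3 matches to the GC box GGGCGG. The DUSP1 and DUSP2 windows held matches to the GC box as well. Of all 35116 promoters of the same length, 1.85% held TGACGTCA, 24.6% TGACG, 7.26% CACGTG, 11.5% TATAAA and 45.0% GGGCGG. Among the 8 members matched, TGACGTCA was present in 2, DUSP1 and DUSP8, and GGGCGG in 7. The antioxidant response element core TGACNNNGC was present in 2, DUSP1 and DUSP10, and in 13.3% of all promoters. An NF-kB site was present in 1, DUSP7, and in 11.3% of all promoters. The AP-1 site TGANTCA, the EGR site GCGTGGGCG and the CArG box were present in 0 of the 8. Of all promoters 7.71%, 0.795% and 1.29% held them. For the members not shown, the RefSeq start lay further from the deposited start. The distance was 351 bases for DUSP8, 480 for DUSP16, 770 for DUSP6, 4711 for DUSP9 and 5276 for DUSP10. Their windows may therefore not be the promoters of the transcripts counted. These matches describe the letters of the windows and are not measured binding sites.

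Library totals lay between 30426401 and 49034244 counts, and the counts of replicate pairs differed beyond sampling noise (chi-square over its degrees of freedom 4.36 to 26.9). All 8 keratinocyte markers were present in every group, with a summed level of 12500 to 16400 RPKM per library (counts divided by gene length and by TMM-scaled library size). With H2O2, 2 of the 8 were upregulated and 3 downregulated in TIGK, and 3 and 4 in HaCaT. Over all genes tested the shares were 10.2% and 12.9% in TIGK and 18.9% and 15.2% in HaCaT. KRT5 and KRT14 rose in both lines, and TP63, CDH1 and DSP fell in both. The summed level of 6 fibroblast markers was at most 2.50 RPKM, of 5 melanocyte markers at most 2.95 RPKM and of 4 immune markers at most 1.82 RPKM in any library. Of the single markers COL1A2 was at 0 in all 12 libraries, TYR in 11 of 12 and CD3E in 8 of 12, while COL1A1 had 275 to 844 raw counts, MITF 82 to 802 and, in TIGK, DCN 145 to 270 and CD14 80 to 128. MITF, 1 of 2 melanocyte markers tested, was upregulated with H2O2 in TIGK (log2 0.57, edgeR adjusted p = 0.00205) and HaCaT (log2 0.80, edgeR adjusted p = 0.000288). The other, PMEL, was called in neither TIGK (log2 0.30, edgeR adjusted p = 0.493) nor HaCaT (log2 -0.77, edgeR adjusted p = 0.0689). The part of MITF in the results was not tested. The share of counts on mitochondrial genes moved with the treatment, from 3.33-3.45% to 1.39-1.5% in TIGK and from 6.10-6.26% to 3.30-3.51% in HaCaT. Without mitochondrial genes in the table, the numbers of MKP genes called were the same in all 5 comparisons. The formula in the treatment label reads H2O2, H2O3 and H2O4 for replicates 1, 2 and 3 of each treated group, whereas the treatment protocol and the study's methods name H2O2 for all. Values with the treated libraries labelled H2O2 alone, 1 per line, are therefore given where they change the call of an MKP gene. In that fit the lone treated library is assumed to vary as the untreated libraries do.

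In terms of composition, the MKP transcripts of untreated TIGK and untreated HaCaT overlapped in their summed level but were led by different members. The summed level was 220 ± 28.5 RPKM in untreated TIGK and 233 ± 3.72 RPKM in untreated HaCaT (SD, n = 3 each). By library it was 252, 207 and 200 RPKM in untreated TIGK and 232, 230 and 237 RPKM in untreated HaCaT. The overlap thus rested on replicate 1 of untreated TIGK, and replicates 2 and 3 lay below every untreated HaCaT library. Replicate 1 was also the highest of its group for DUSP1, DUSP2, DUSP4, DUSP5 and DUSP6. After H2O2 the summed level was 1110 ± 31.5 RPKM in TIGK and 353 ± 3.99 RPKM in HaCaT (SD, n = 3 each). In these bulk samples fewer cells of a type and less RNA per cell cannot be told apart.

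In untreated TIGK the highest level per length was that of DUSP1, at 71.1 ± 14.8 RPKM or 32.3% of the sum. It was followed by DUSP5 at 39.0 ± 7.21 RPKM and DUSP7 at 34 ± 1.22 RPKM, whose libraries overlapped. DUSP6, DUSP4, DUSP9, DUSP2, DUSP10, DUSP16 and DUSP8 came next in this order, from 28.7 ± 2.90 RPKM down to 0.537 ± 0.0458 RPKM, and DUSP9 overlapped DUSP2 as DUSP10 did DUSP16. The order was another in untreated HaCaT. There DUSP4 led at 95.3 ± 2.00 RPKM or 40.9% of the sum, ahead of DUSP6 at 46.1 ± 1.62 RPKM, while DUSP1 was sixth at 7.96 ± 0.150 RPKM or 3.42% of the sum. DUSP10 and DUSP1 overlapped in HaCaT, as did DUSP9 and DUSP16.

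After H2O2, 2 genes made up most of the family's transcripts in TIGK, DUSP1 with 55.9% and DUSP5 with 28.7% of the summed RPKM. In HaCaT the sum was spread over more members. DUSP1 held 36.5%, DUSP6 19.7%, DUSP4 16.0%, DUSP5 10.0% and DUSP2 9.01%, and the libraries of DUSP5 and DUSP2 overlapped. By class, the inducible nuclear members went from 141 ± 25.6 to 1010 ± 35.3 RPKM in TIGK and from 140 ± 1.86 to 252 ± 5.09 RPKM in HaCaT. The cytoplasmic ERK phosphatases stood at 73.3 ± 2.73 and 92.0 ± 4.62 RPKM in TIGK, and at 81.8 ± 2.99 and 90.7 ± 1.90 RPKM in HaCaT. Those of JNK and p38 summed to 5.72 to 12.1 RPKM over all libraries. The sums join members that moved apart. Among the cytoplasmic members DUSP6 rose and DUSP7 fell in both lines, and among the nuclear members DUSP4 fell in HaCaT while DUSP1 and DUSP2 rose.

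**Figure D1:**
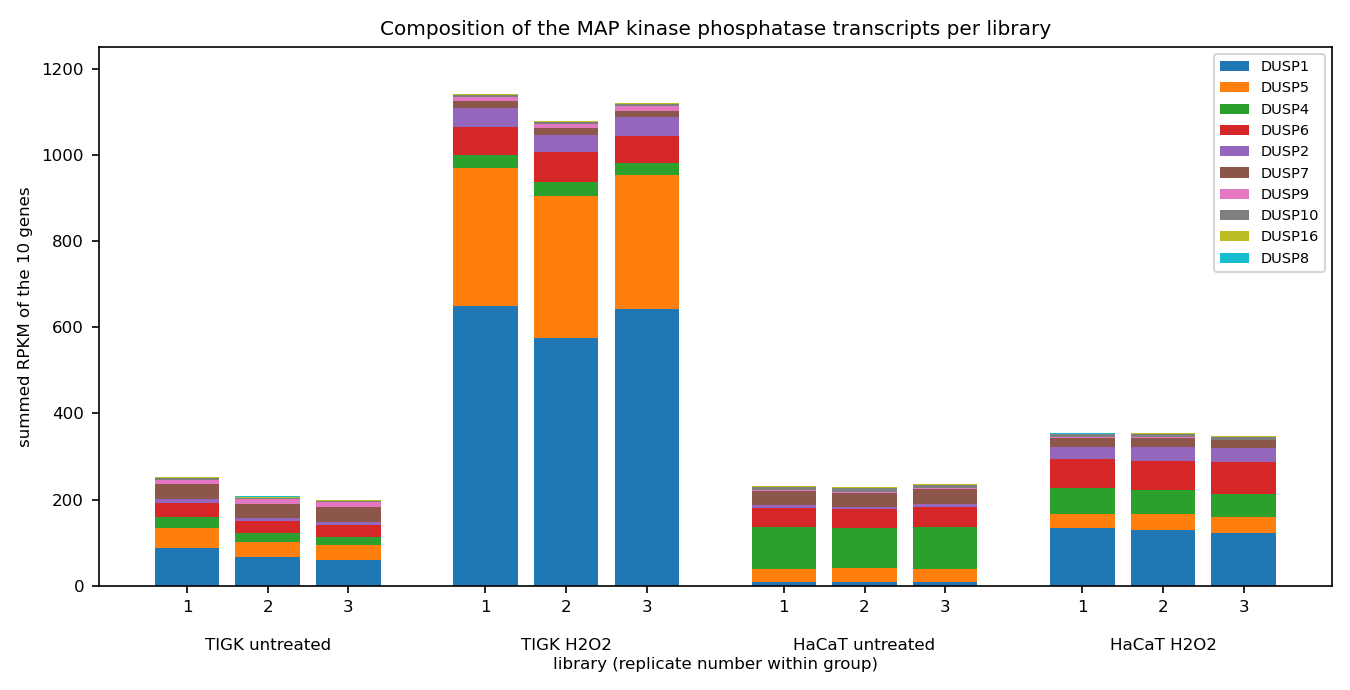
Summed RPKM of the 10 MKP genes in each of the 12 libraries, stacked by gene, with libraries on the horizontal axis and RPKM on the vertical axis. The treated TIGK libraries reach 1080 to 1140 RPKM, mostly DUSP1 and DUSP5, while the treated HaCaT libraries lie between 348 and 355 RPKM.

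The first question was which MKP genes changed with H2O2 in each line. In TIGK, 5 of the 10 were upregulated (DUSP1, DUSP2, DUSP4, DUSP5 and DUSP6) and 1 was downregulated (DUSP7), where over all genes tested 10.2% were upregulated and 12.9% downregulated. In HaCaT, 5 were upregulated (DUSP1, DUSP2, DUSP6, DUSP8 and DUSP9) and 3 downregulated (DUSP4, DUSP7 and DUSP10), against 18.9% and 15.2% of all genes. The median log2 fold change of the family was 0.44 in both lines, beside 0.01 in TIGK and 0.04 in HaCaT over all genes. A gene was called when the adjusted p of edgeR's quasi-likelihood test, by Benjamini-Hochberg over all genes tested, was under 0.01. With the treated libraries labelled H2O2 alone, the number called in HaCaT was 5 and not 8, and it was likewise 5 without replicate 2 of treated HaCaT.

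**Figure D2:**
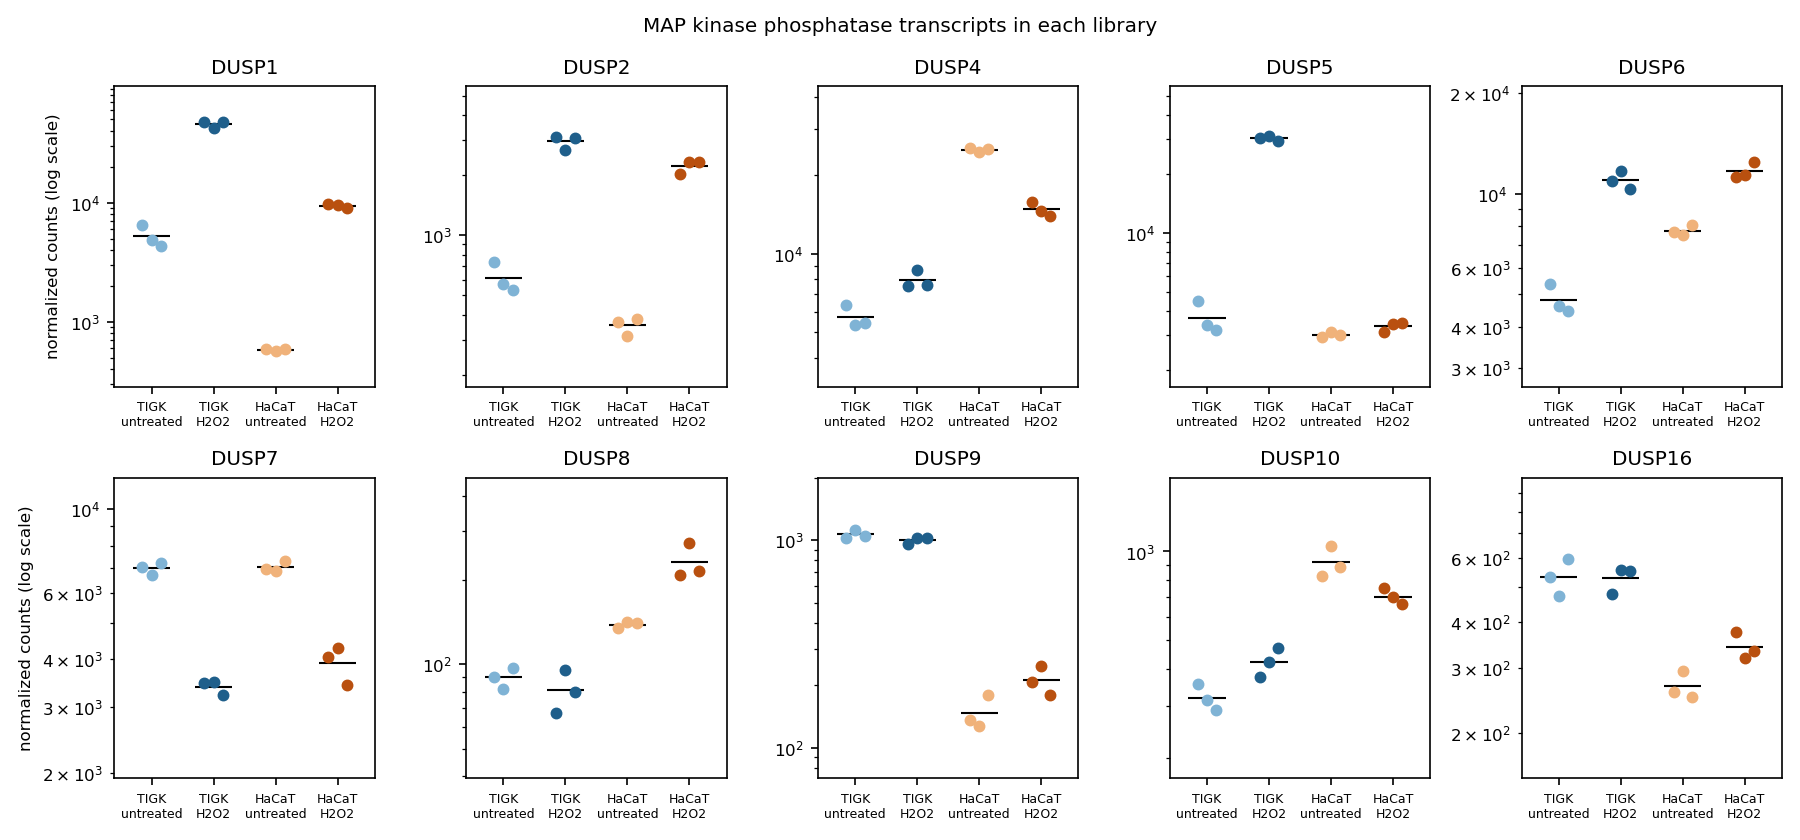
Normalized counts of the 10 MKP genes in the 12 libraries, 1 panel per gene with its own logarithmic vertical axis, the 4 groups on the horizontal axis, points for libraries and a line for the group mean. Treated libraries of DUSP1 and DUSP2 lie above the untreated ones in both lines, whereas for DUSP5 this separation is wide in TIGK alone, where the mean went from 3700 to 30360.

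DUSP1 (ENSG00000120129, chr5:172768090-172771195, minus strand of GRCh38) encodes a nuclear phosphatase of p38, JNK and ERK and is a classic immediate early gene. In TIGK its normalized counts, which are counts after TMM at the mean library size, were 6431, 4823 and 4362 untreated and 47540, 42150 and 47020 after H2O2. In HaCaT they were 589.9, 570.2 and 588.5 untreated and 9773, 9508 and 9011 after H2O2. Every treated library lay above every untreated one, and the treated HaCaT libraries also lay above the untreated TIGK libraries. The rise in TIGK was 8.75-fold (log2 3.13 ± 0.103, SE), with an edgeR adjusted p of 3.59e-14. In HaCaT it was 16.2-fold, with a log2 fold change of 4.02 ± 0.112 (SE) and an edgeR adjusted p of 4.57e-15. These ranked 63 and 52 of 16618 genes by the absolute size of the log2 fold change.

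DUSP2 (ENSG00000158050, chr2:96143166-96145440, minus strand), first described in activated immune cells, encodes a nuclear phosphatase of ERK and p38. Its normalized counts in TIGK were 733.2, 572.3 and 534.1 untreated and 3112, 2683 and 3051 after H2O2. The HaCaT libraries held 369.8, 312.7 and 379.1 untreated and 2017, 2321 and 2339 after H2O2. The treated libraries were all higher in both lines without overlap. DUSP2 rose 4.81-fold in TIGK (log2 2.26 ± 0.106, SE, edgeR adjusted p = 8.34e-12) and 6.27-fold in HaCaT (log2 2.65 ± 0.111, SE, edgeR adjusted p = 1.75e-12).

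DUSP5 (ENSG00000138166, chr10:110497838-110511544, plus strand) encodes a nuclear phosphatase that acts on ERK and holds it in the nucleus. The normalized counts in TIGK were 4481, 3406 and 3211 untreated and 30460, 31130 and 29480 after H2O2, with every treated library far above the untreated ones. In HaCaT they were 2952, 3109 and 3011 untreated and 3126, 3440 and 3470 after H2O2, with the treated libraries higher by little and no overlap. DUSP5 rose 8.2-fold in TIGK (log2 3.04 ± 0.0927, SE), with an edgeR adjusted p of 1.28e-14, which ranked 66 of 16618 genes. The log2 fold change in HaCaT was 0.15 (95% interval -0.04 to 0.33), which did not pass the limit (edgeR adjusted p = 0.187) and ranked 12571. The processed pseudogenes of DUSP5 were counted apart from it, DUSP5P1 with a mean raw count of 18.2 and DUSP5P2 with 0.167, beside 10470 for DUSP5.

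DUSP4 (ENSG00000120875, chr8:29333064-29350668, minus strand) is a nuclear phosphatase of ERK and JNK and a known target of ERK signalling. In TIGK the normalized counts were 6349, 5341 and 5443 untreated and 7544, 8690 and 7561 after H2O2, the treated libraries being higher without overlap. In HaCaT they were 25460, 24480 and 25300 untreated and 15850, 14620 and 14020 after H2O2, the treated libraries being lower without overlap. DUSP4 was thus the only MKP gene called in opposite directions in the lines. It rose 1.39-fold in TIGK (log2 0.47 ± 0.0712, SE, edgeR adjusted p = 4.5e-05) and changed by a log2 fold change of -0.76 ± 0.0706 (SE) in HaCaT (edgeR adjusted p = 1.25e-07).

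Of the cytoplasmic phosphatases of ERK, DUSP6 was upregulated and DUSP7 downregulated in both lines. DUSP6 (ENSG00000139318, chr12:89347232-89353271, minus strand) is the feedback inhibitor of growth factor signalling whose transcript is often used as a readout of ERK. Its normalized counts in TIGK were 5366, 4623 and 4451 untreated and 10930, 11700 and 10350 after H2O2. The values of HaCaT were 7667, 7507 and 8038 untreated and 11240, 11340 and 12450 after H2O2. The lines differed before treatment, and the treated libraries of both overlapped each other. The rise was 2.28-fold in TIGK (log2 1.19 ± 0.0697, SE, edgeR adjusted p = 2.22e-10) and 1.51-fold in HaCaT (log2 0.59 ± 0.0687, SE, edgeR adjusted p = 1.86e-06).

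DUSP7 (ENSG00000164086, chr3:52048919-52056550, minus strand) is a close relative of DUSP6. Its normalized counts in TIGK were 7018, 6696 and 7190 untreated and 3467, 3474 and 3228 after H2O2. In HaCaT they were 6938, 6846 and 7272 untreated and 4061, 4286 and 3419 after H2O2. The untreated libraries of the lines overlapped, and all treated libraries were below all untreated ones. DUSP7 changed by a log2 fold change of -1.04 ± 0.0688 (SE) in TIGK (edgeR adjusted p = 1.35e-09) and of -0.84 ± 0.0685 (SE) in HaCaT (edgeR adjusted p = 2.38e-08).

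DUSP9 (ENSG00000130829, chrX:153642492-153651326, plus strand) is the third of this class and is known from placenta and from pluripotent cells. In TIGK its normalized counts were 1028, 1125 and 1053 untreated and 956.1, 1027 and 1031 after H2O2. Those of HaCaT were 136.0, 127.1 and 179.7 untreated and 208.1, 248.3 and 179.4 after H2O2. Treated and untreated libraries overlapped in both lines. The response of TIGK was not called, with a log2 fold change of -0.09 (95% interval -0.32 to 0.14, edgeR adjusted p = 0.569). In HaCaT DUSP9 passed the limit with a log2 fold change of 0.52 ± 0.137 (SE, edgeR adjusted p = 0.00446). This call was lost without replicate 2 or 3 of treated TIGK, replicate 1 or 2 of untreated HaCaT, or replicate 1 or 2 of treated HaCaT, with log2 fold changes from 0.39 to 0.50 and edgeR adjusted p from 0.0104 to 0.0342. It was also lost with the groups compared alone (edgeR adjusted p = 0.0393) and with the treated libraries labelled H2O2 alone (edgeR adjusted p = 0.0675), and over the 21 alternatives the adjusted p ranged from 0.000883 to 0.0675.

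Of the members that prefer JNK and p38, DUSP16 and DUSP8 ranked 9 and 10 by mean RPKM in every group. DUSP10 ranked 8 in TIGK, but 5 in untreated HaCaT at 8.684 RPKM, with libraries that overlapped those of DUSP1, and 7 in treated HaCaT. The calls of DUSP8 and DUSP10 in HaCaT were lost under some alternatives. DUSP8 (ENSG00000184545, chr11:1554044-1571920, minus strand), known from brain and heart, had the lowest counts of the family. In TIGK its normalized counts were 90.5, 81.91 and 97.21 untreated and 67.3, 95.17 and 79.97 after H2O2, which overlapped. In HaCaT they were 134.5, 141.5 and 140.2 untreated and 208.1, 270.5 and 215.6 after H2O2, higher without overlap. The log2 fold change was -0.15 (95% interval -0.54 to 0.24, edgeR adjusted p = 0.573) in TIGK and 0.74 ± 0.171 (SE, edgeR adjusted p = 0.00172) in HaCaT. The call in HaCaT was lost without replicate 2 of treated HaCaT (log2 0.61, edgeR adjusted p = 0.014) and with the treated libraries labelled H2O2 alone (log2 0.59, edgeR adjusted p = 0.088). Over the 21 alternatives its adjusted p ranged from 0.000189 to 0.088. DUSP8 is reported as uncertain for a further reason, since its processed pseudogene DUSP8P5 had a mean raw count of 37.8 beside 132.2 for DUSP8, and how reads shared by both were counted is not given in the sources used here.

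DUSP10 (ENSG00000143507, chr1:221701424-221742176, minus strand) encodes a phosphatase of p38 and JNK that restrains inflammatory signalling. In TIGK its normalized counts were 354.9, 313.1 and 290.6 untreated and 375.9, 420.6 and 469.5 after H2O2. HaCaT had 826.7, 1044 and 882.7 untreated and 751.0, 698.3 and 661.9 after H2O2. The treated libraries were all higher in TIGK and all lower in HaCaT. In TIGK the log2 fold change of 0.41 ± 0.117 (SE) just missed the limit (edgeR adjusted p = 0.0111), and in HaCaT it passed it with -0.38 ± 0.109 (SE, edgeR adjusted p = 0.00765). The call in HaCaT was lost without replicate 2 or 3 of untreated HaCaT or replicate 2 or 3 of treated HaCaT (log2 -0.41 to -0.28, edgeR adjusted p 0.0146 to 0.059), with library totals alone (edgeR adjusted p = 0.0116) and with the treated libraries labelled H2O2 alone (log2 -0.29, edgeR adjusted p = 0.2). Over the 21 alternatives the adjusted p in HaCaT ranged from 0.00123 to 0.2. In TIGK a call was gained without replicate 1 of untreated TIGK, replicate 1 of treated TIGK, replicate 2 of untreated HaCaT, or replicate 1 or 3 of treated HaCaT (log2 0.40 to 0.49, edgeR adjusted p 0.0062 to 0.00918). It was also gained with all libraries under DESeq2 (adjusted p = 0.00377), RLE factors (0.00996), library totals alone (0.00976), no filter on low counts (0.00148) and filterByExpr (0.00673), and over its 21 alternatives the adjusted p ranged from 0.00148 to 0.345.

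DUSP16 (ENSG00000111266, chr12:12474210-12562383, minus strand), a phosphatase of JNK and p38, was called in neither line. Its normalized counts lay between 470.7 and 594.8 in all TIGK libraries, and the 95% interval of the log2 fold change in TIGK was -0.25 to 0.23 (edgeR adjusted p = 0.968). In HaCaT the counts were 259.0, 295.1 and 250.8 untreated and 376.0, 320.6 and 333.1 after H2O2. The treated HaCaT libraries did not overlap the untreated ones, but the log2 fold change of 0.36 (95% interval 0.11 to 0.61) did not pass the limit (edgeR adjusted p = 0.0203). Genes on the opposite strand overlap DUSP1, DUSP6, DUSP8 and DUSP16, with mean raw counts of 2.08, 17.3, 1.08 and 0.583, and whether the counting used strand is not given in the sources used here.

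The second question was whether the lines responded differently, tested as the response of TIGK minus that of HaCaT in the same fit. Of the MKP genes, 4 had a higher response in TIGK (DUSP5, DUSP4, DUSP10 and DUSP6) and 1 a higher response in HaCaT (DUSP1), against 2.32% and 2.98% of all genes tested. These were 385 and 496 genes, of which 43.7% had the higher response in TIGK, whereas without mitochondrial genes in the table the split was 522 and 346, or 60.1%. The largest difference was that of DUSP5, whose log2 fold change was higher by 2.89 ± 0.126 (SE) in TIGK (edgeR adjusted p = 4.52e-11), a 7.41-fold difference in response. For DUSP4 the difference was 1.23 ± 0.1 (SE, edgeR adjusted p = 1.78e-07), for DUSP10 0.79 ± 0.159 (SE, edgeR adjusted p = 0.00323) and for DUSP6 0.60 ± 0.0972 (SE, edgeR adjusted p = 0.000478). The fold rise of DUSP1 was smaller in TIGK, with a difference of -0.89 ± 0.141 (SE, edgeR adjusted p = 0.000403). In mean RPKM, DUSP1 went from 71.07 to 622.2 in TIGK and from 7.958 to 128.8 in HaCaT, which is the larger rise in TIGK. Its level after H2O2 was still higher in TIGK, from a higher untreated level.

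The other 5 members did not pass this test. The difference was -0.38 for DUSP2 (95% interval -0.70 to -0.07, edgeR adjusted p = 0.108), -0.20 for DUSP7 (-0.40 to 0.00, edgeR adjusted p = 0.198) and -0.37 for DUSP16 (-0.71 to -0.02, edgeR adjusted p = 0.169). For DUSP8 it was -0.89 (-1.42 to -0.36, edgeR adjusted p = 0.0282) and for DUSP9 -0.61 (-0.98 to -0.24, edgeR adjusted p = 0.03). The responses of DUSP8 and DUSP9 were called in HaCaT and not in TIGK, and that alone does not show that the lines differ. DUSP9 passed without replicate 3 of untreated HaCaT (difference -0.77, edgeR adjusted p = 0.00767) or replicate 3 of treated HaCaT (-0.72, edgeR adjusted p = 0.00792), and with all libraries under DESeq2 (-0.59, adjusted p = 0.0094), within a range of adjusted p from 0.00767 to 0.183 over 20 alternatives. DUSP10 was lost without replicate 2 of untreated HaCaT (0.69, edgeR adjusted p = 0.0125). With the treated libraries labelled H2O2 alone, DUSP4 and DUSP5 were the 2 members called, while DUSP1 (-0.88, edgeR adjusted p = 0.0337), DUSP6 (0.64, edgeR adjusted p = 0.0152) and DUSP10 (0.52, edgeR adjusted p = 0.283) were not. Over the 20 alternatives the adjusted p reached at most 0.0337 for DUSP1, 0.000279 for DUSP4, 8.53e-07 for DUSP5, 0.0152 for DUSP6 and 0.283 for DUSP10, and its lowest values were 4.96e-19, 1.65e-50, 1.04e-241, 6.18e-12 and 8.1e-06.

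**Figure D3:**
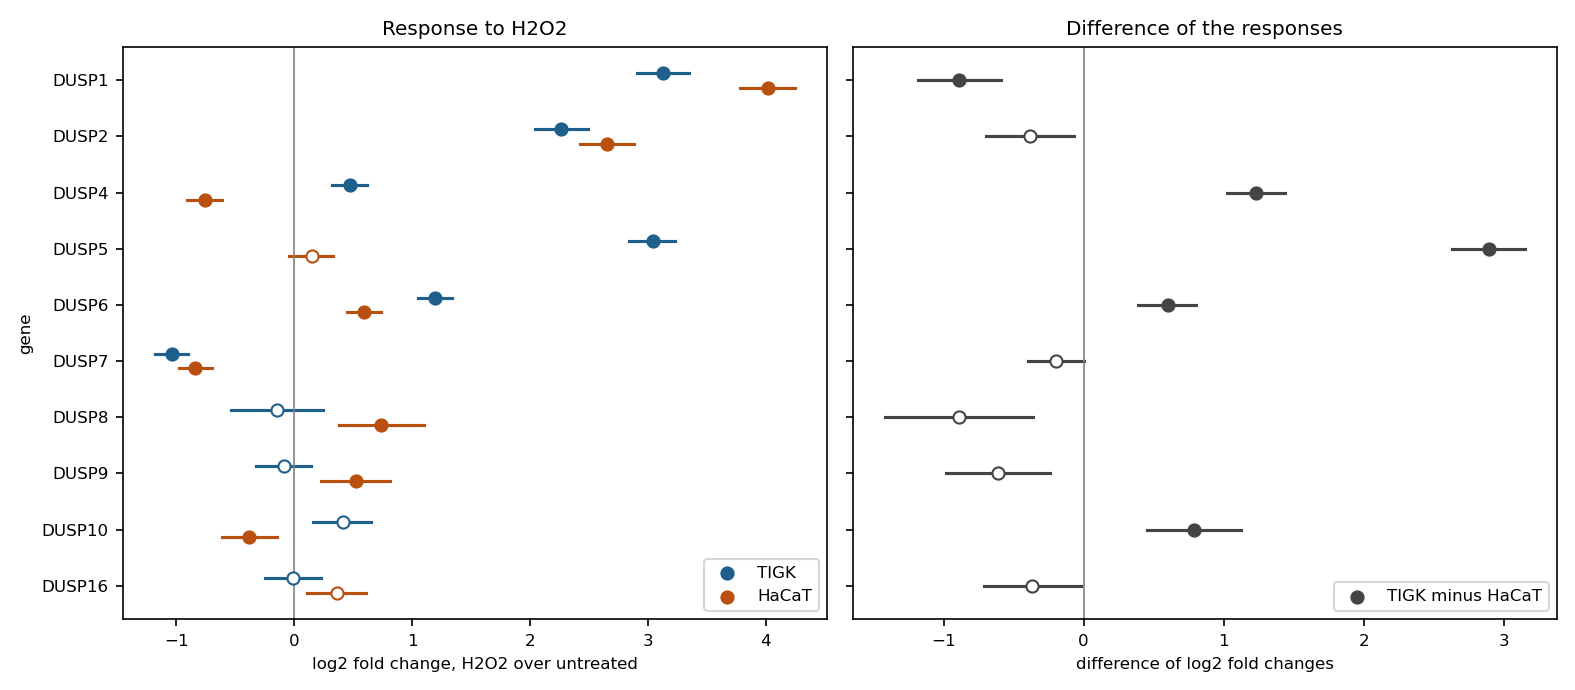
Log2 fold change with H2O2 of each MKP gene in TIGK and HaCaT (left) and the difference of the responses, TIGK minus HaCaT (right), with 95% intervals from edgeR, filled where the adjusted p was under 0.01. DUSP5 stands apart with 3.04 in TIGK and 0.15 in HaCaT, and DUSP4 lies on opposite sides of 0.

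The third question was how the lines differed under each condition. These comparisons share their libraries with the responses above and are not independent of them. In untreated cells 4 MKP genes were higher in HaCaT (DUSP4, DUSP6, DUSP8 and DUSP10) and 5 lower (DUSP1, DUSP2, DUSP5, DUSP9 and DUSP16), where 29.1% and 30.8% of all genes were. After H2O2, 3 were higher in HaCaT (DUSP4, DUSP8 and DUSP10) and 5 lower (DUSP1, DUSP2, DUSP5, DUSP9 and DUSP16), beside 30.2% and 29.8% of all genes. The median log2 fold change of the family, HaCaT over TIGK, was -0.14 untreated and -0.16 after H2O2, beside -0.01 and 0.02 over all genes.

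DUSP1 was 8.93-fold lower in untreated HaCaT than in untreated TIGK (log2 -3.16 ± 0.109, SE, edgeR adjusted p = 5.64e-15) and 4.83-fold lower after H2O2 (log2 -2.27 ± 0.0991, SE, edgeR adjusted p = 1.9e-13). DUSP9 was 7.24-fold lower untreated (log2 -2.86 ± 0.127, SE, edgeR adjusted p = 2.44e-13) and 4.75-fold lower after H2O2. DUSP5 differed by 1.22-fold untreated (log2 -0.29 ± 0.088, SE, edgeR adjusted p = 0.00659) and was 9.07-fold lower in HaCaT after H2O2 (log2 -3.18 ± 0.0934, SE, edgeR adjusted p = 5.39e-16). The untreated call of DUSP5 was lost with filterByExpr in place of the filter on mean counts (edgeR adjusted p = 0.0127). It was also lost without replicate 1 of untreated TIGK, replicate 2 or 3 of treated TIGK, or any of the 3 untreated HaCaT libraries, with log2 fold changes from -0.31 to -0.13 and edgeR adjusted p from 0.0142 to 0.067, and over the 21 alternatives the adjusted p ranged from 7.83e-05 to 0.067.

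DUSP4 was 4.39-fold higher in untreated HaCaT (log2 2.13 ± 0.0734, SE, edgeR adjusted p = 5.14e-15) and 1.87-fold higher after H2O2 (log2 0.90 ± 0.0711, SE, edgeR adjusted p = 1.25e-09). DUSP10 was 2.87-fold and 1.66-fold higher, and DUSP6 1.61-fold higher untreated. After H2O2 the log2 fold change of DUSP6 was 0.09 (95% interval -0.06 to 0.23, edgeR adjusted p = 0.268), with overlapping libraries. DUSP2 was 1.73-fold lower in untreated HaCaT and 1.32-fold lower after H2O2, and DUSP16 1.99-fold and 1.54-fold lower. For DUSP16 the call after H2O2 was lost with the treated libraries labelled H2O2 alone (log2 -0.36, edgeR adjusted p = 0.158, range over 21 alternatives 1.94e-07 to 0.158).

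DUSP7 had almost the same level in the untreated lines, with a log2 fold change whose 95% interval ran from -0.13 to 0.15 (edgeR adjusted p = 0.9). After H2O2 its log2 fold change of 0.21 missed the limit (edgeR adjusted p = 0.011) and passed it without replicate 3 of treated HaCaT (log2 0.30, edgeR adjusted p = 7e-05, range over 21 alternatives 7e-05 to 0.161). DUSP8 was 1.54-fold higher in untreated HaCaT (log2 0.62, edgeR adjusted p = 0.00476) and 2.85-fold higher after H2O2 (log2 1.51, edgeR adjusted p = 3.83e-07). The untreated call of DUSP8 was lost without replicate 1 or 2 of untreated TIGK or replicate 2 or 3 of untreated HaCaT (log2 0.58 to 0.63, edgeR adjusted p 0.0126 to 0.0196) and with library totals alone (edgeR adjusted p = 0.011), and over the 21 alternatives its adjusted p ranged from 0.00216 to 0.0196.

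**Figure D4:**
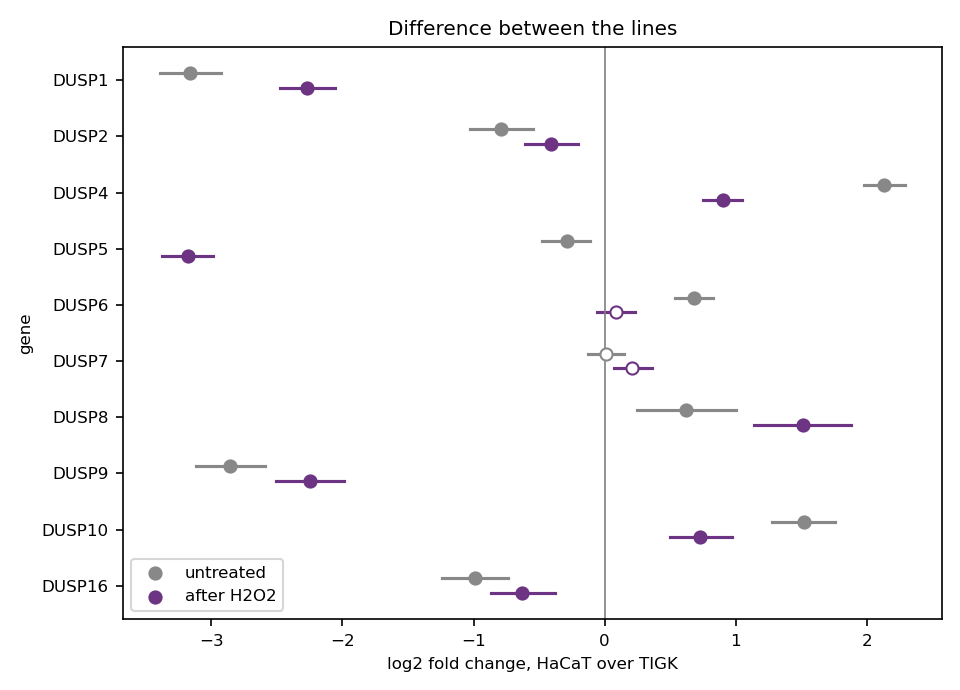
Log2 fold change of each MKP gene, HaCaT over TIGK, in untreated cells and after H2O2, with 95% intervals from edgeR, filled where the adjusted p was under 0.01. DUSP5 moves from -0.29 to -3.18, DUSP1 from -3.16 to -2.27 and DUSP4 from 2.13 to 0.90.

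The other genes of the pathway were taken from lists written by hand from general knowledge. Their counts are given against the shares of all genes tested, 10.2% upregulated and 12.9% downregulated in TIGK and 18.9% and 15.2% in HaCaT. Of 10 MAP kinases, 2 were upregulated and 1 downregulated in TIGK (median log2 -0.06) and 1 upregulated in HaCaT (median 0.05). MAPK3, which encodes ERK1, and the JNK genes MAPK8 and MAPK9 passed the limit in neither line, with log2 fold changes from -0.15 to 0.05 in TIGK and from -0.13 to 0.20 in HaCaT. MAPK14, which encodes p38 alpha, was upregulated by 0.33 ± 0.0574 (SE, edgeR adjusted p = 0.000224) on the log2 scale in TIGK. In HaCaT its log2 fold change was 0.20 ± 0.0578 (SE, edgeR adjusted p = 0.00835). That call was lost without replicate 2 of untreated TIGK, any treated TIGK library, replicate 2 or 3 of untreated HaCaT, or replicate 1 or 2 of treated HaCaT (log2 0.15 to 0.20, edgeR adjusted p 0.0112 to 0.0667). It was also lost with the groups compared alone (edgeR adjusted p = 0.0619), RLE factors (0.0138), no mitochondrial genes (0.0296), no filter on low counts (0.0531) and filterByExpr (0.0212), and over the 21 alternatives the adjusted p ranged from 0.00605 to 0.0667. MAPK7, which encodes ERK5, changed by -0.61 ± 0.123 (SE) in TIGK (edgeR adjusted p = 0.000825).

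Upstream, with the same shares of all genes as background, 1 of 7 MAP2 kinases was upregulated and 2 downregulated in TIGK (median log2 0.03), and 3 and 1 in HaCaT (median 0.02). Of 13 MAP3 kinases 1 was upregulated in TIGK (median -0.09), and 3 were upregulated and 5 downregulated in HaCaT (median -0.12). MAP2K5, the kinase of ERK5, rose by 0.58 ± 0.114 in TIGK and by 0.73 ± 0.109 in HaCaT on the log2 scale (SE, edgeR adjusted p = 0.000645 and 3.07e-05). MAP3K5, which encodes ASK1, a kinase that oxidants activate, rose by 0.57 ± 0.0969 and 0.70 ± 0.1 (SE, edgeR adjusted p = 0.00015 and 1.91e-05). The called falls were smaller. The log2 fold change was -0.40 for MAP2K3, a kinase of p38, in TIGK (edgeR adjusted p = 0.000227), and in HaCaT -0.25 for MAP2K4, a kinase of JNK (edgeR adjusted p = 0.00174), and -0.33 for BRAF, a kinase upstream of ERK (edgeR adjusted p = 0.00625). MAP2K4 was lost without replicate 3 of untreated HaCaT or replicate 2 of treated HaCaT (log2 -0.23 and -0.21, edgeR adjusted p 0.011 and 0.0105), with an adjusted p of 6.79e-05 to 0.0807 over 21 alternatives. BRAF was lost without any untreated HaCaT library or replicate 2 or 3 of treated HaCaT (log2 -0.36 to -0.28, edgeR adjusted p 0.011 to 0.0315) and with library totals alone (edgeR adjusted p = 0.0109), with an adjusted p of 0.000925 to 0.291 over 21 alternatives.

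Phosphatases outside the MKP family were counted against the same shares, 10.2% and 12.9% of all genes in TIGK and 18.9% and 15.2% in HaCaT. Of the 14 atypical dual specificity phosphatases 11 were tested, of which 1 was upregulated in TIGK and 2 in HaCaT (median log2 0.03 and -0.01). Of 8 other MAP kinase phosphatases 6 were tested, with 0 called in TIGK and 1 upregulated in HaCaT (median 0.06 and 0.11). DUSP14 had a log2 fold change of 0.32 in TIGK (edgeR adjusted p = 0.00212), which was lost without replicate 3 of untreated TIGK (0.29, edgeR adjusted p = 0.0111, range over 21 alternatives 1.19e-06 to 0.0232). In HaCaT DUSP23 had 0.83 (edgeR adjusted p = 0.00439), and PPM1D, a serine/threonine phosphatase of p38 and a p53 target, had 0.61 (edgeR adjusted p = 0.00336). DUSP23 was lost without replicate 1 or 2 of untreated HaCaT or replicate 2 or 3 of treated HaCaT (0.65 to 0.78, edgeR adjusted p 0.0148 to 0.0301) and with the groups compared alone (edgeR adjusted p = 0.031), with a range over 21 alternatives from 0.000265 to 0.468. PPM1D was lost without replicate 2 of untreated HaCaT or replicate 1 or 2 of treated HaCaT (0.47 to 0.52, edgeR adjusted p 0.0214 to 0.0237), with a range over 21 alternatives from 8.56e-05 to 0.0237.

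Sprouty and SPRED proteins are feedback inhibitors of the same pathway that act upstream of ERK. Of 7 genes, 1 rose and 2 fell in TIGK (median log2 -0.18), and 1 rose and 1 fell in HaCaT (median -0.25). The shares of all genes tested were 10.2% and 12.9% in TIGK and 18.9% and 15.2% in HaCaT. SPRY2 rose by 0.53 ± 0.0973 in TIGK and 0.47 ± 0.095 in HaCaT (SE, log2, edgeR adjusted p = 0.000337 and 0.000577). SPRED1 had log2 fold changes of -0.48 and -0.35 (edgeR adjusted p = 0.00039 and 0.00307). In HaCaT SPRED1 was lost without replicate 2 or 3 of untreated or of treated HaCaT (-0.34 to -0.26, edgeR adjusted p 0.0118 to 0.017, range over 21 alternatives 1.72e-05 to 0.231). SPRY4 passed the limit in neither line, with log2 fold changes of 0.32 in TIGK and -0.31 in HaCaT (edgeR adjusted p = 0.0103 and 0.0168). It was the member whose responses differed, by 0.63 higher in TIGK (edgeR adjusted p = 0.00503). That was lost without any untreated HaCaT library or replicate 2 of treated HaCaT (0.60 to 0.65, edgeR adjusted p 0.0107 to 0.0159, range over 20 alternatives 5.54e-07 to 0.289).

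ERK output genes, which include immediate early genes, were the list with the largest changes. Of 10, 5 rose and 4 fell in TIGK (median log2 0.52), and 4 rose and 3 fell in HaCaT (median 0.21). Over all genes tested, 10.2% rose and 12.9% fell in TIGK, and 18.9% and 15.2% in HaCaT. EGR1 had the largest rise in TIGK, 15.4-fold (log2 3.94 ± 0.115, SE, edgeR adjusted p = 9.01e-15), and FOS in HaCaT, 76.7-fold (log2 6.26 ± 0.178, SE, edgeR adjusted p = 5.2e-15). ETV5 had the largest fall in TIGK (log2 -0.70, edgeR adjusted p = 1.01e-05) and EPHA4 in HaCaT (log2 -1.19, edgeR adjusted p = 3.58e-09). Before treatment EGR1 and FOS were 3.86-fold and 2.99-fold lower in HaCaT than in TIGK, and FOSL1 was 2.46-fold higher. After H2O2 the lines did not differ by the limit for EGR1 (log2 0.10, edgeR adjusted p = 0.391), FOSL1 (0.14, 0.145) or EPHA4 (-0.19, 0.0523). FOS, ETV4, ETV5, PHLDA1 and IER3 did differ. The difference of responses compares changes and not levels. The response was lower in TIGK for FOS (difference -2.70, edgeR adjusted p = 1.69e-07), EGR1 (-2.05, 4.91e-08), ETV5 (-0.96, 6.6e-05) and ETV4 (-0.50, 0.00133), as it was for DUSP1. It was higher in TIGK for FOSL1 (1.16, edgeR adjusted p = 3.32e-06), PHLDA1 (1.14, 3.69e-07), IER3 (1.06, 7.13e-06) and EPHA4 (0.79, 0.000201), as it was for DUSP5, DUSP4 and DUSP6. ETV4 was lost without replicate 2 of untreated TIGK or replicate 2 or 3 of treated TIGK (-0.44 to -0.41, edgeR adjusted p 0.0109 to 0.0144, range over 20 alternatives 6.08e-05 to 0.0559). Of the other lists of pathway genes, 0 of 10 MAP kinases, 0 of 7 MAP2 kinases, 0 of 13 MAP3 kinases, 0 of 11 atypical and 0 of 6 other phosphatases tested passed for a difference of responses in edgeR. Over all genes tested the response was higher in TIGK for 2.32% and lower for 2.98%. In lists this short, 0 lies near those shares.

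**Figure D5:**
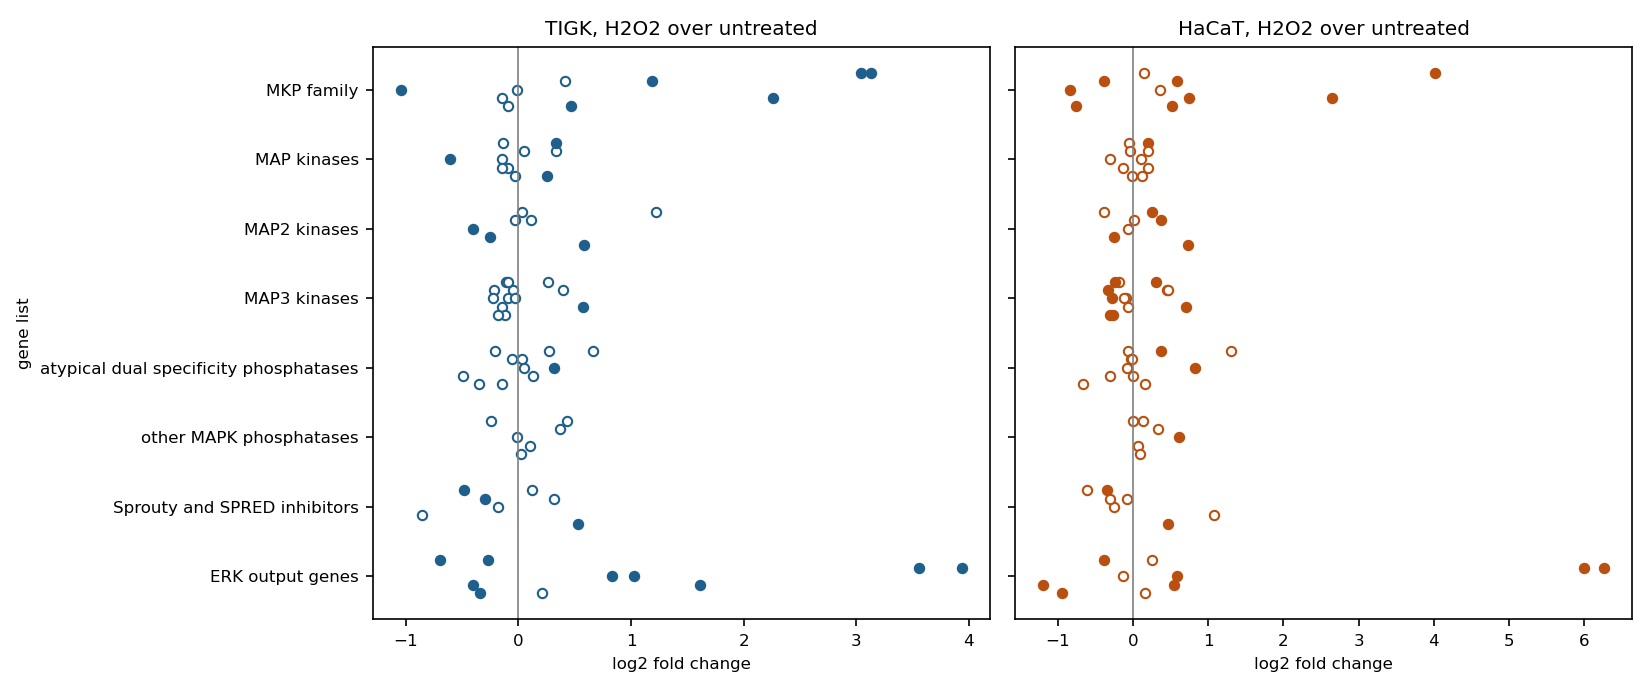
Log2 fold change with H2O2 in TIGK (left) and HaCaT (right) of each gene tested, in rows by list, filled where the edgeR adjusted p was under 0.01; vertical offsets within a row only separate points. The MKP family and the ERK output genes hold the rises above 2 on the log2 scale, up to 3.94 in TIGK and 6.26 in HaCaT, and the genes of the 3 kinase lists lie between -0.61 and 1.22 in TIGK.

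Between the lines, the counts of these lists stand beside 29.1% of all genes higher and 30.8% lower in HaCaT when untreated, and 30.2% and 29.8% after H2O2. No difference between lists was tested. In untreated cells, 4 of 10 MAP kinases were higher and 3 lower in HaCaT, 5 of 7 MAP2 kinases higher and 0 lower, and 4 of 13 MAP3 kinases higher and 2 lower. Of 11 atypical phosphatases 0 were higher and 8 lower, of 6 other phosphatases 3 higher and 2 lower, of 7 Sprouty and SPRED genes 2 and 2, and of 10 ERK output genes 5 and 4. After H2O2 the numbers higher and lower in HaCaT were 4 and 4 for MAP kinases, 6 and 1 for MAP2 kinases, 3 and 4 for MAP3 kinases, 1 and 8 for atypical phosphatases, 3 and 1 for other phosphatases, 2 and 2 for Sprouty and SPRED genes, and 3 and 4 for ERK output genes.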

How the data were processed

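Libraries were assigned to groups by their labels (n = 3 in each of 4). The authors deposited raw read counts per gene for 58735 genes, made from reads mapped to GRCh38 and counted with featureCounts 1.5.0-p3. HISAT2 2.0.5 and 2.0.0 are both named in the submitters' processing notes. The annotation release and the treatment of strand and of multiply mapped reads are not given in the sources used here. The authors' deposited results of 4 DESeq2 comparisons (log2 fold changes and p-values) were not used.

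Genes averaging 10 or more raw counts were tested in R 4.3.3 with edgeR 4.0.16 (TMM, quasi-likelihood, 4 groups in 1 fit, Benjamini-Hochberg) at an adjusted p of 0.01. RPKM was computed from the counts and the deposited gene length. DESeq2 1.42.0, other scalings, filters, a limit of 0.05, a replicate block and leaving out each library were alternatives, and the fit on treated libraries labelled H2O2 alone was chosen after seeing the data. Figures were drawn with matplotlib 3.10.9. The fit was tested on simulated data. Members and lists were chosen with earlier results of these data known. All members are named. Of each other list the called genes with the largest rise and fall in each response, those with a called difference of responses, and MAPK3, MAPK8, MAPK9 and MAPK14 are named. The values of 1 further kinase are not reported here. Library totals were 30426401 to 49034244 counts, and counting error weighs most for members with few counts, such as DUSP8.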

Additional observations from a re-analysis of the deposited data

Results flagged for a closer look

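The responses of the lines differed by a test of the difference itself for 5 MKP genes (edgeR's quasi-likelihood test, Benjamini-Hochberg adjusted over all genes tested). Of all genes tested, 2.32% had a higher response in TIGK and 2.98% a lower one. The response of TIGK minus that of HaCaT was 2.89 for DUSP5 (edgeR adjusted p = 4.52e-11), 1.23 for DUSP4 (1.78e-07), 0.79 for DUSP10 (0.00323), 0.60 for DUSP6 (0.000478) and -0.89 for DUSP1 (0.000403), on the log2 scale. With the treated libraries labelled H2O2 alone, the differences of DUSP5 and DUSP4 passed the limit and those of DUSP10, DUSP6 and DUSP1 did not.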

How the results depend on the processing

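Of 1040 values of the members under alternatives, 976 kept their direction and their side of the limit, 35 lost a call, 14 gained one and 15 changed sign. Of 789 values of other pathway genes, 732 kept both, 52 lost a call and 5 changed sign. The number of MKP genes called stayed within 1.5 times that reported except in HaCaT, where it was 5 with the treated libraries labelled H2O2 alone and 5 to 8 when single libraries were left out, and in the difference of responses, where it was 2 with the treated libraries labelled H2O2 alone. That setting has fewer samples. The values that changed sign were near 0. DUSP16 in TIGK had log2 fold changes of 0.01 with library totals alone, 0 without mitochondrial genes, 0.03 without a filter and 0.03 with filterByExpr, and -0.06 to 0.08 with single libraries left out. DUSP7 between the untreated lines had 0 with DESeq2, 0 in the groups compared alone, 0 with RLE factors, -0.06 with library totals alone and 0 with the treated libraries labelled H2O2 alone, and -0.01 to 0.03 with single libraries left out. DUSP6 between the lines after H2O2 had -0.01 to 0.11 with single libraries left out. MAPK9 in TIGK had 0.01 without a filter and 0.01 with filterByExpr, and -0.08 to 0.04 with single libraries left out. The cause was not tested.

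Same-numbered libraries did not deviate together (correlations of -0.121 to 0.0257 over 18 pairs, 0 above 0.1), so the numbers were kept as names. With a replicate block, 6 MKP genes were called in TIGK, 7 in HaCaT, 8 between the untreated lines, 8 after H2O2 and 5 in the difference of responses, beside 6, 8, 9, 8 and 5 without it. The calls lost were DUSP10 in HaCaT (edgeR adjusted p = 0.0151) and DUSP5 between the untreated lines (0.0127), and of the other pathway genes MAPK14 in HaCaT (0.0157) and SPRY4 in the difference of responses (0.0123). The difference of responses was not refitted on the groups compared alone, since it uses all groups. Depth limits DUSP8, with 58 to 232 counts per library.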
